A study of Mus musculus with 4 samples.

Results

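The genes described here carry glucose into the cells of the lens and break it down to lactate. They are 10 genes chosen by name, by a rule that used no measured value, although earlier results of these data were known. The glucose transporters *Slc2a1* (GLUT1) and *Slc2a3* (GLUT3) stand at the entry, and the enzymes *Hk1*, *Pfkm*, *Aldoa*, *Gapdh*, *Pgk1*, *Eno1*, *Pkm* and *Ldha* follow in the order of the pathway. All 10 names were found among the 56748 rows of the expression table, in 11 rows, because the name *Aldoa* belongs to 2 rows.

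RNA was sequenced from whole lenses of mice aged 10 to 12 days. Mutant lenses came from *Fsp1-cre;Pdgfrb*+/D849V mice, in which Cre driven by the *Fsp1* promoter switches on a hyperactive form of the receptor PDGFRβ that was knocked into its own locus. Control lenses are labelled *Fsp1-cre;Pdgfrb*+/+, while the study's methods state that the control pools also held mice without Cre, *Pdgfrb*+/+ and *Pdgfrb*+/D849V. Each group had 2 libraries, each a pool of lenses from several mice of the FVB/N background, so p-values measure the spread between 2 pools. Neither the Cre transgene nor the receptor allele is restricted to the lens, and the mutant allele is read from the *Pdgfrb* promoter. The line had also been crossed with a Cre-dependent tdTomato reporter. The earliest robust reporter activity that the paper describes in the lens epithelium is at a later age than these pools. Expression of the mutant receptor once Cre is induced is assumed in the paper.

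The lens has no blood vessels and takes its glucose from the aqueous humour. Its fibre cells lose their mitochondria and other organelles as they mature, so most of the glucose they use is broken down by anaerobic glycolysis and leaves as lactate. GLUT1 is the main glucose carrier described in the lens, hexokinase traps glucose in the cell, phosphofructokinase commits it to glycolysis, and pyruvate kinase and lactate dehydrogenase complete the path. Excess glucose can instead be reduced to sorbitol by the polyol pathway, which is known for its part in sugar cataract.

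Values are FPKM as deposited, fragments per kilobase of gene length scaled to a size set for each library. The read numbers recovered from these values came to between 18561682 and 18878768 per library, and 58.6 to 62.9% of these lay on crystallin genes. The library size behind FPKM was 0.944 to 1.05 times the recovered reads. Lens markers were abundant in every library (summed FPKM of 14 genes, 164249 to 194524), although *Lim2* was listed at 0. The summed FPKM was 1.79 to 3.38 for 11 retina markers, 0.899 to 1.34 for 8 markers of pigmented epithelium and ciliary body, 8.70 to 12.6 for 8 endothelial markers, 14.2 to 16.6 for 8 pericyte and fibroblast markers, 17.2 to 34.9 for 7 red blood cell markers and 0.512 to 2.26 for 8 macrophage markers. *Xist* was highest in mutant replicate 2 and control replicate 1, at 13.1 and 15.6 FPKM, against at most 7.62 FPKM in the other libraries.

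Of the 10 genes, *Pkm* had the highest FPKM as deposited and *Slc2a3* the lowest. Mean FPKM over the 4 libraries was 140.5 for *Pkm*, 87.5 for *Pgk1*, 86.7 for *Aldoa*, 85.6 for *Eno1*, 51.0 for *Slc2a1*, 32.2 for *Ldha*, 10.9 for *Gapdh*, 1.39 for *Pfkm*, 1.16 for *Hk1* and 0.0283 for *Slc2a3*. Among protein-coding genes these levels placed *Pkm* at rank 112, *Slc2a1* at rank 317, *Ldha* at rank 473 and *Hk1* at rank 7109. The ranges over the 4 libraries overlapped between *Pgk1* and *Aldoa*, between *Aldoa* and *Eno1*, between *Ldha* and *Gapdh*, and between *Pfkm* and *Hk1*, so these neighbours could not be ordered beyond their spread.

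The order depended in part on the gene length behind FPKM. The table divides reads by the joint length of all exons of a gene, which is 5379 bases for *Eno1* and 4133 bases for *Gapdh*, whereas the main coding transcript of the GRCm38 annotation has 2027 and 1420 bases. Per kilobase of that main transcript, *Eno1* came next after *Pkm*, with 227.0 against 288.8 FPKM-equivalents. *Aldoa* then followed with 167.1 and *Pgk1* with 107.6, and *Ldha* (60.4) stood level with *Slc2a1* (54.8), with overlapping ranges. The low levels of *Pfkm* and *Hk1* remained, at 1.61 and 2.58. These values leave out the reads counted on copies of *Gapdh* and *Eno1*, described below. Length and copies were not corrected together, so the top of the order is not settled.

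**Figure D1:**
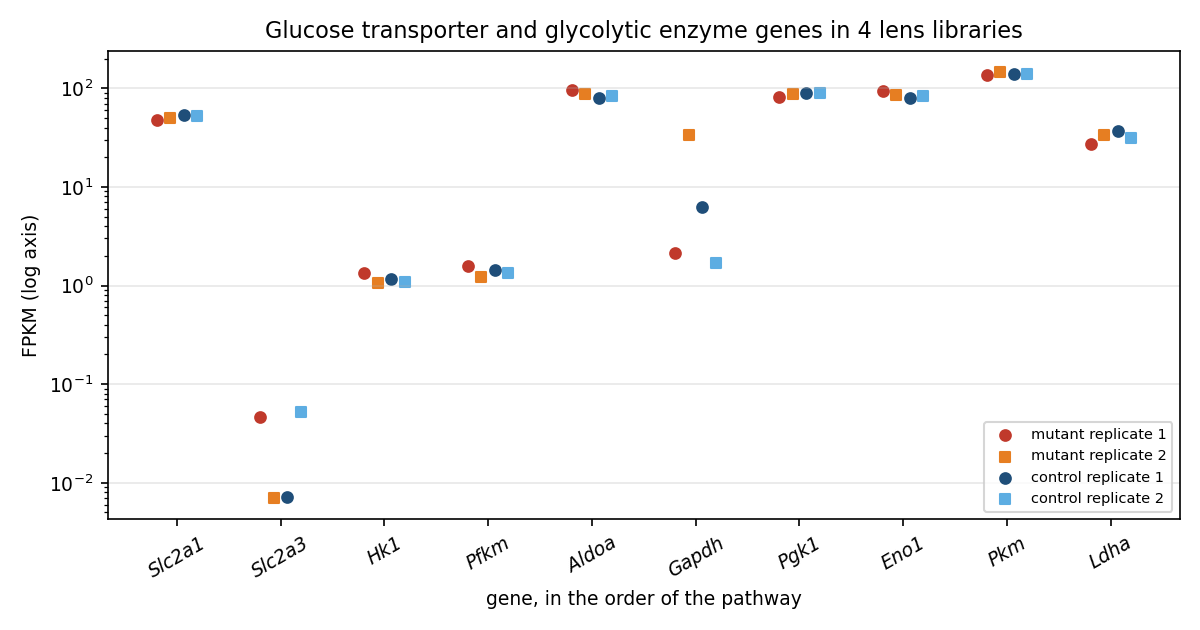
FPKM (log axis) of the 10 genes in each of the 4 lens libraries, with mutant libraries in red and orange and control libraries in dark and light blue. Points of a gene lie close together except for *Gapdh*, which spans 1.68 to 33.4 FPKM, and *Slc2a3*, which rests on 1 to 7 reads.

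*Slc2a1* (mouse build mm39, chr4:118965908-118995180, plus strand) encodes GLUT1, the carrier that lets glucose across the membrane down its gradient. It measured 48.0 and 49.7 FPKM in the mutant libraries and 53.6 and 52.6 FPKM in the control libraries. Both mutant values lay below both control values, and the fold change of mutant over control was 0.921 (95% interval 0.796 to 1.07, limma adjusted p = 0.810). *Slc2a3* (chr6:122704768-122778599, minus strand) encodes GLUT3, a carrier with a high affinity for glucose that is known from neurons. It held 6 and 1 reads in the mutant pools and 1 and 7 reads in the control pools, or 0.00705 to 0.0524 FPKM, and did not pass the filter on low values. No difference between the groups was detectable at this depth. *Slc2a1* made up 92.1 to 93.4% of the summed FPKM of 11 genes of its transporter family in each library. The next highest was *Slc2a8*, which encodes the intracellular carrier GLUT8, at 2.42 to 3.02 FPKM.

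*Hk1* (chr10:62104634-62215687, minus strand), which encodes the hexokinase found in most tissues, was not the leading hexokinase gene. It measured 1.34 and 1.07 FPKM in the mutant pools and 1.18 and 1.07 FPKM in the control pools, and the groups overlapped (fold change 1.06, 95% interval 0.770 to 1.46, adjusted p = 0.935). *Hk2*, the hexokinase of muscle and other insulin-responsive tissues, lay above it in every library.

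*Hk2* stood higher in both mutant libraries. It measured 7.23 and 9.23 FPKM in the mutant pools and 5.91 and 5.67 FPKM in the control pools, a log2 fold change of 0.49 (SE 0.15). The unadjusted p of limma was 0.0196 and the adjusted p 0.735, so the difference did not pass the test over all genes. The groups did not overlap.

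*Pfkm* (chr15:97990470-98030332, plus strand), the muscle form of phosphofructokinase, likewise was a minor gene of its step. It measured 1.58 and 1.22 FPKM in the mutant pools and 1.43 and 1.33 FPKM in the control pools, and the mutant values lay on either side of the control values (fold change 1.01, 95% interval 0.734 to 1.38, adjusted p = 0.997). It made up 8.69 to 12.1% of the summed phosphofructokinase FPKM. The liver form *Pfkl* made up 84.6 to 88.2%, with 11.1 and 12.4 FPKM in the mutant pools and 12.5 and 12.5 FPKM in the control pools (adjusted p = 0.848). *Pfkm* overlaps *Senp1* on the opposite strand, which held 111 to 152 reads against 80 to 94 on *Pfkm*. Whether the counting used strand is not given in the sources used here, so reads of the overlapping part cannot be told apart.

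*Aldoa* (chr7:126394406-126399923, minus strand) encodes aldolase A, which splits fructose 1,6-bisphosphate and is the form of muscle and most other tissues. It measured 96.1 and 86.6 FPKM in the mutant pools and 79.8 and 84.4 FPKM in the control pools. Both mutant values lay above both control values, with a fold change of 1.11 (95% interval 0.936 to 1.32, adjusted p = 0.810). *Aldoc*, the form known from brain, was the more abundant gene on the FPKM scale, with 161.4 and 151.6 FPKM in the mutant pools and 155.3 and 164.0 FPKM in the control pools (adjusted p = 0.958). *Aldoa* made up 37.4 and 36.4% of aldolase FPKM in the mutant pools and 33.9 and 34.0% in the control pools, so its share did not overlap between the groups. Per kilobase of the main transcripts the mean share was 47.4%.

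A second row named *Aldoa* (ENSMUSG00000114515, chr7:126399962-126408280, minus strand) lies next to the first. It held 6 and 5 reads in the mutant pools and 0 and 0 in the control pools. It was the only row of the set with an unadjusted limma p under 0.05 (adjusted p = 0.613). It passed the filter on low values only through the mutant pools, so this p is no support for a difference. With both control libraries at 0 and so few reads, no fold change is given.

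*Gapdh* (chr6:125138678-125143430, minus strand) encodes glyceraldehyde-3-phosphate dehydrogenase, the step of glycolysis that yields NADH, and is widely used as a reference gene. Its row measured 2.12 and 33.4 FPKM in the mutant pools and 6.18 and 1.68 FPKM in the control pools, a 19.9-fold range over 4 lens pools. Mutant replicate 2 stood far above the others, and the other 3 libraries overlapped between the groups. The log2 fold change was 1.37 (SE 1.35, adjusted p = 0.835), and it was -0.59 without mutant replicate 2 and 3.33 without mutant replicate 1. These levels are low beside those of *Pgk1* and *Pkm*, later enzymes of the same chain.

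Rows that closely match *Gapdh* together held more reads than the *Gapdh* row itself. *Gm13394* (chr2:28823622-28824621), a processed pseudogene, a copy of a spliced transcript in the genome without introns, held 8285 and 7551 reads in the mutant pools and 3853 and 6740 reads in the control pools. The *Gapdh* row held 156, 2705, 497 and 128 reads in the same order. This pseudogene was chosen for mention after its values were seen. The copy and the *Gapdh* reading frame are shown here because their letters show where a read of the gene could be told from a read of the copy. Over 1000 aligned bases of the GRCm38 transcripts, starting at the first base of the start codon, they were 99.9% identical and differed by a single substitution, A346C, with the base of *Gapdh* first. The reference is of another strain than the FVB/N lenses. Positions 306 to 386 read as follows, with the differing base in capitals.
Gapdh: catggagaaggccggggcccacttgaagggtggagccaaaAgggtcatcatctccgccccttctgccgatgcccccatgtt
Gm13394: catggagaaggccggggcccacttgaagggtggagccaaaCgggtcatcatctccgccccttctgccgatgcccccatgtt

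A read that misses this base and lies within the reading frame fits both places equally well by its letters. Near-identical rows were collected as rows of which at least 50% of the 31-base words occur in a *Gapdh* transcript. There were 43 such rows, 40 of them with reads, and after *Gm13394* the highest was *Gm7336* with at most 210 reads. The copies held 98.3% (95% Wilson interval 98.0 to 98.5%) of all reads on *Gapdh* and its copies in mutant replicate 1, 74.9% (74.1 to 75.7%) in mutant replicate 2, 89.7% (88.8 to 90.6%) in control replicate 1 and 98.3% (97.9 to 98.5%) in control replicate 2. These intervals cover counting error only. How reads that fit several places were counted is not given in the sources used here, and reads left out of the table were not analysed here. Whether the reads on the copies came from *Gapdh* was not tested.

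**Figure D2:**
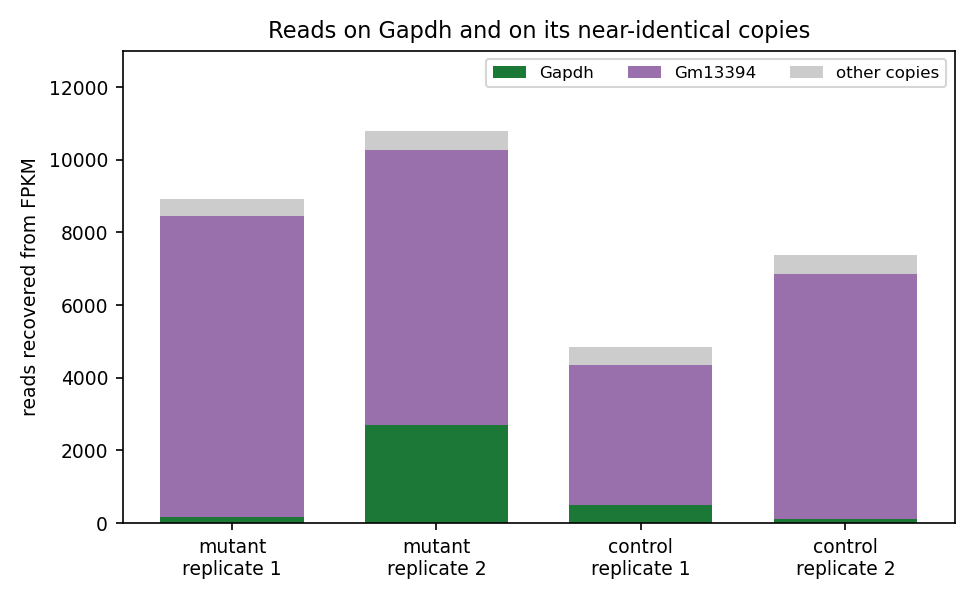
Reads recovered from FPKM on *Gapdh* (green), on the pseudogene *Gm13394* (purple) and on all other near-identical copies together (grey), stacked for each library. The purple part is the largest in every library, and the total runs from 4838 reads in control replicate 1 to 10780 reads in mutant replicate 2.

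The reads on *Gapdh* and its copies together came to 8915 and 10780 in the mutant pools and 4838 and 7376 in the control pools. Over the length of *Gapdh* this was 127.1 ± 8.65 FPKM (SD, n = 2) in the mutant and 78.5 ± 25.9 FPKM (SD, n = 2) in the control lenses. As reads, before scaling to library size, the sum ranged 2.23-fold over the libraries. As FPKM it ran from 60.2 in control replicate 1 to 133.2 in mutant replicate 2, and the groups no longer overlapped. The log2 fold change was 0.73 (SE 0.23), with an unadjusted limma p of 0.0247 and an adjusted p of 0.746, so it did not pass the test over all genes. It ran from 0.39 without control replicate 1 to 1.08 without control replicate 2. The libraries with the most reads on the *Gapdh* row, mutant replicate 2 and control replicate 1, were also those with the most *Xist*. Summed over the 11 retina markers, FPKM was 1.79 and 3.38 in the mutant pools and 2.43 and 2.003 in the control pools. Much of these sums was *Abca4*, at 1.42 and 1.52 against 1.63 and 1.57 FPKM. Single markers varied more, with 0 and 18 against 10 and 0 reads on *Crx* and 8 and 29 against 20 and 4 on *Sag*. Not all shared this pattern, with 3 and 7 against 0 and 6 reads on *Rcvrn* and 0 and 0 against 2 and 2 on *Pde6b*. The part of retinal RNA or of the make-up of the pools in the *Gapdh* values was not tested.

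*Pgk1* (chrX:105230706-105247305, plus strand) encodes phosphoglycerate kinase, the first enzyme of glycolysis that makes ATP. It measured 81.9 and 87.5 FPKM in the mutant pools and 90.3 and 90.2 FPKM in the control pools, with both mutant values lower and a fold change of 0.938 (95% interval 0.805 to 1.09, adjusted p = 0.825). It carried the whole step, since the testis gene *Pgk2* was listed at 0 in every library. Its copy *Pgk1-rs7*, also mentioned after its values were seen, held at most 19 reads against at least 3277 on *Pgk1*. *Pgk1* lies on the X chromosome. *Xist* measured 7.62 and 13.1 FPKM in the mutant pools and 15.6 and 5.56 FPKM in the control pools. The part of the make-up of the pools in the *Pgk1* values was not tested.

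*Eno1* (chr4:150321178-150333336, plus strand) encodes enolase 1, the form of most tissues, which makes phosphoenolpyruvate. It measured 93.1 and 86.0 FPKM in the mutant pools and 79.0 and 84.2 FPKM in the control pools, with both mutant values higher and a fold change of 1.10 (95% interval 0.931 to 1.29, adjusted p = 0.810). *Eno1*, too, has close copies on which reads were counted. The gene *Eno1b* measured 72.3 and 77.3 FPKM in the mutant pools and 75.5 and 65.5 FPKM in the control pools, and the pseudogene *Gm4735*, mentioned after its values were seen, 85.6, 91.8, 85.2 and 89.5 FPKM in the same order. The copies held 4406, 5182, 4915 and 4417 reads against 8925, 9058, 8263 and 8345 on *Eno1*. With these added, *Eno1* came to 137.1 ± 2.69 FPKM (SD, n = 2) in the mutant and 127.3 ± 1.92 FPKM (SD, n = 2) in the control lenses, a fold change of 1.08 (adjusted p = 0.810). Unlike in *Gapdh*, the row of the gene itself held most of the reads. Whether the reads on *Eno1b* and *Gm4735* came from *Eno1* was not tested.

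The muscle enolase *Eno3* also was abundant, with 74.0 and 70.0 FPKM in the mutant pools and 74.8 and 86.0 FPKM in the control pools (adjusted p = 0.810). *Eno1* made up 34.1 to 38.2% of enolase FPKM, *Eno3* 29.5 to 36.0% and *Eno1b* 27.4 to 32.6%. *Eno2*, the enolase of neurons, was a small part of the step but stood higher in both mutant libraries. It measured 4.47 and 4.30 FPKM in the mutant pools and 2.32 and 3.14 FPKM in the control pools, a log2 fold change of 0.68 (SE 0.17, adjusted p = 0.681).

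*Pkm* (chr9:59563651-59586658, plus strand) encodes pyruvate kinase M, which makes pyruvate and ATP. It measured 135.8 and 146.0 FPKM in the mutant pools and 140.3 and 139.7 FPKM in the control pools. The mutant values lay on either side of the control values, and the fold change was 1.01 (95% interval 0.859 to 1.18, adjusted p = 0.993). The liver and red cell gene *Pklr* was listed at 0 in every library. *Pkm* makes the isoforms PKM1 and PKM2 by a choice between exons, which a value per gene cannot tell apart.

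*Ldha* (chr7:46490899-46505051, plus strand) encodes the A chain of lactate dehydrogenase, which turns pyruvate into lactate and restores NAD. It measured 27.2 and 33.3 FPKM in the mutant pools and 37.1 and 31.1 FPKM in the control pools, and the groups overlapped (fold change 0.887, 95% interval 0.686 to 1.15, adjusted p = 0.810). It made up 95.4 to 98.6% of the lactate dehydrogenase FPKM. The B chain gene *Ldhb* measured 1.18 and 1.59 FPKM in the mutant pools and 1.02 and 0.415 FPKM in the control pools (adjusted p = 0.806).

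**Figure D3:**
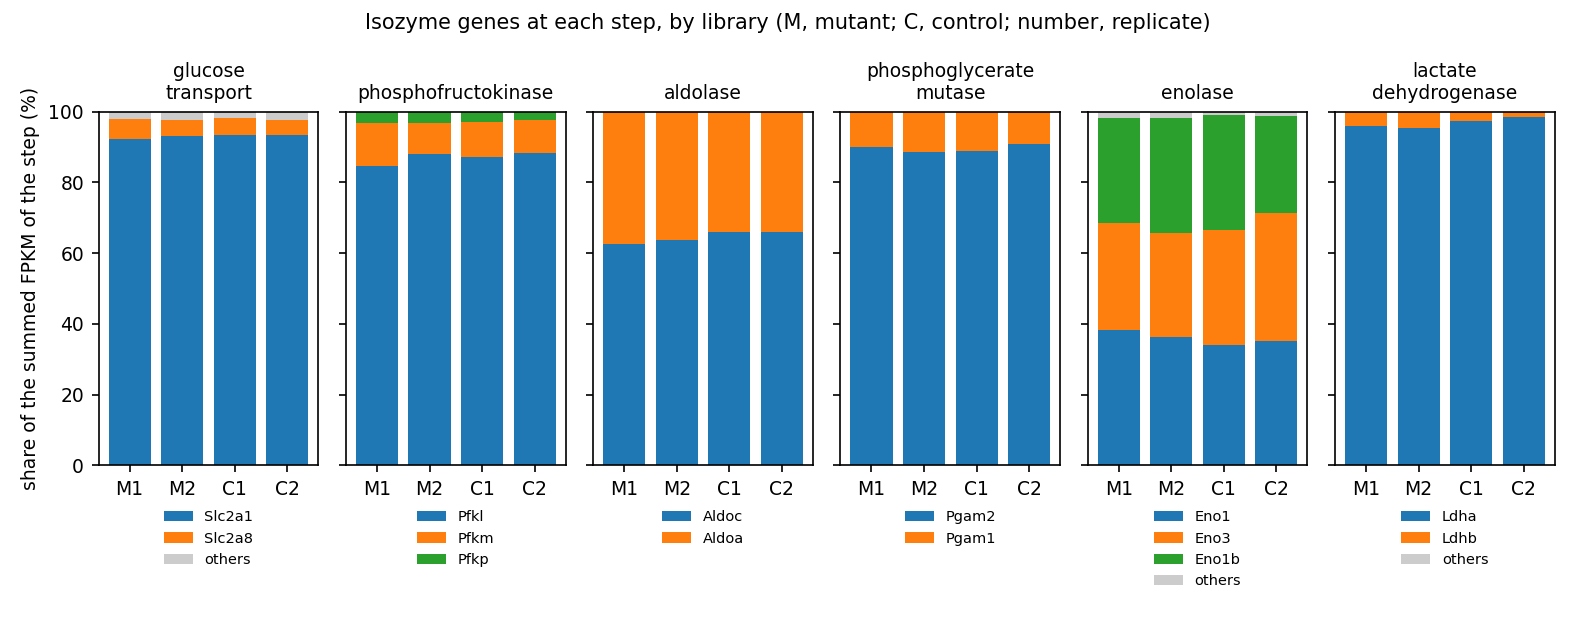
Share of the summed FPKM of a step (vertical axis, percent) held by each isozyme gene, with 1 bar per library (M1 and M2, mutant; C1 and C2, control). *Slc2a1* and *Ldha* fill most of their steps, while *Pfkm* and *Aldoa* are not the leading genes of theirs.

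Set side by side, the steps of the pathway differed widely in summed FPKM. Glucose-6-phosphate isomerase (*Gpi1*) came to 12.7 to 14.1 FPKM per library and the phosphofructokinases summed to 13.1 to 14.3. Aldolases summed to 235.1 to 258.0 FPKM, enolases to 231.7 to 243.8 and phosphoglycerate mutases to 404.7 to 507.1. Most of the last came from *Pgam2*, the muscle mutase, with 415.3 and 358.0 FPKM in the mutant pools and 369.6 and 460.1 FPKM in the control pools, or 88.5 to 90.7% of its step. The isomerase and phosphofructokinase steps lay below every later step in each library, the *Gapdh* row aside. These are levels of mRNA, and they say nothing of the activity of each enzyme.

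None of the 10 rows that could be tested passed the test between mutant and control lenses. Of these 10 rows, 0 passed an adjusted p under 0.05 by limma and 0 by voom on the recovered reads, where 0.0375% and 0.0875% of the 15997 genes tested passed. At an unadjusted p under 0.05, 1 row passed by limma and 1 by voom, in both the second *Aldoa* row, against 6.31% and 7.43% of all genes. That row entered the test only through its reads in the mutant pools. Leaving that row aside, 6 of 9 genes had a fold change above 1, against 50.7% of all genes, and the median log2 fold change was 0.0092, against 0.0041 over all genes. The groups did not overlap for 4 of 9 genes, against 36.6% of all genes. *Aldoa* and *Eno1* stood higher in both mutant libraries, as 18.2% of all genes did, and *Slc2a1* and *Pgk1* lower, as 18.3% did.

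The intervals give the size of change that the 4 libraries leave possible. For *Slc2a1*, *Aldoa*, *Pgk1*, *Eno1* and *Pkm* they ran from 0.796 to 1.32-fold at the widest. For *Ldha*, *Hk1* and *Pfkm* they ran from 0.686 to 1.46-fold, and for the *Gapdh* row from 0.234 to 28.4-fold. Among the 756 genes with a mean of 20 to 200 FPKM, the median log2 fold change was 0.0823. Their median absolute log2 fold change was 0.117, close in size to the values of *Slc2a1* (-0.12), *Aldoa* (0.15) and *Eno1* (0.13). The summed FPKM of the set without *Gapdh* was 488.7 ± 4.45 (SD, n = 2) in the mutant and 483.7 ± 1.38 (SD, n = 2) in the control lenses. In a sample of whole lenses, fewer cells of a type and less RNA per cell cannot be told apart.

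**Figure D4:**
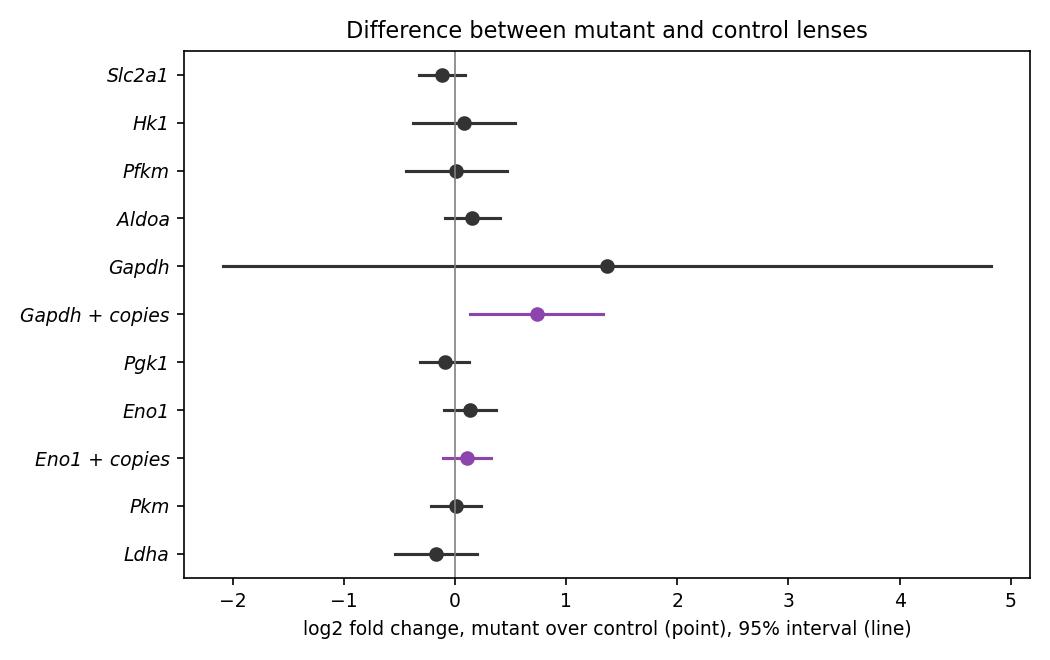
Log2 fold change of mutant over control (points) with its 95% interval from limma (lines) for the 9 named genes that passed the filter, in black, and for *Gapdh* and *Eno1* with the reads of their copies added, in purple. The interval includes 0 for every gene in black, and that of *Gapdh* spans -2.09 to 4.83.

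Of 100 other genes around the pathway, listed by function, 99 were found in the table and 77 could be tested. At an adjusted p under 0.05, 0 passed by limma and 0 by voom. At an unadjusted p under 0.05, 7 passed by limma, or 9.09%, and 10 by voom, against 6.31% and 7.43% of all genes. Of the 7, 4 stood higher and 3 lower in the mutant lenses, where 3.39% of all genes passed as higher and 2.92% as lower. By list, these were 0 of 6 glucose transporters, 2 of 15 isozymes and further enzymes of glycolysis (*Hk2* and *Eno2*), 2 of 11 regulators of glycolytic flux, 0 of 12 genes of lactate and pyruvate use, 0 of 3 genes of the polyol pathway, 0 of 8 genes of the pentose phosphate pathway, 2 of 13 regulators that answer to oxygen or glucose and 1 of 9 hypoxia targets outside glycolysis. The median log2 fold change over the 77 genes was 0.03.

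*Txnip* encodes a protein that is induced by glucose and restrains glucose uptake through GLUT1. It measured 1.62 and 1.73 FPKM in the mutant pools and 1.004 and 0.938 FPKM in the control pools, a log2 fold change of 0.73 (SE 0.15, adjusted p = 0.542). The groups did not overlap, and the value rests on 54 to 106 reads per library. *Pfkfb3*, whose product makes the fructose 2,6-bisphosphate that stimulates phosphofructokinase, measured 3.59 and 3.88 FPKM in the mutant pools and 4.45 and 4.72 FPKM in the control pools, a log2 fold change of -0.29 (SE 0.11, adjusted p = 0.788). The highest of the regulators, the pyruvate dehydrogenase kinase gene *Pdk2*, lay at 6.46 to 6.99 FPKM (adjusted p = 0.969).

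Among the listed regulators that answer to oxygen or glucose, *Hif1a*, which encodes the inducible subunit of the hypoxia-inducible factor, was the highest, with 16.6 and 20.4 FPKM in the mutant pools and 20.6 and 20.3 FPKM in the control pools (adjusted p = 0.810). *Epas1*, which encodes the related subunit HIF-2α and is known from endothelium, measured 0.813 and 0.676 FPKM in the mutant pools and 1.46 and 1.24 FPKM in the control pools, a log2 fold change of -0.78 (SE 0.18, adjusted p = 0.642). *Vhl*, whose product marks these subunits for breakdown, measured 3.82 and 4.07 FPKM against 5.01 and 4.80 FPKM (adjusted p = 0.774). Endothelial markers were summed at 11.9 and 8.70 FPKM in the mutant pools and 12.6 and 10.4 FPKM in the control pools. Of the 8 markers 1 had a log2 fold change above 0, against 50.7% of all genes. The part of vessel cells in the *Epas1* values was not tested.

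*Bnip3*, a hypoxia target that takes part in the removal of mitochondria, measured 17.2 and 16.0 FPKM in the mutant pools and 11.7 and 12.5 FPKM in the control pools. This was a log2 fold change of 0.45 (SE 0.10, adjusted p = 0.580). *Ndrg1*, the highest gene of the same list, lay at 97.9 to 113.5 FPKM without a difference past the test (adjusted p = 0.866). Macrophage markers also stood higher in the mutant libraries, at 1.92 and 2.26 against 0.841 and 0.512 summed FPKM. By limma, 4 of 4 tested markers had an unadjusted p under 0.05, where 3.39% of all genes passed as higher. None of the 4 passed the test over all genes, and by voom only *C1qc* stayed under the unadjusted threshold. The filter favoured this count, since *C1qb* and *C1qc* averaged 0.0722 and 0.0266 FPKM in the control pools. They passed the filter of 0.1 FPKM only through the mutant pools. *C1qa*, *C1qb* and *C1qc* also lie close together on chromosome 4, so they are not separate results. These markers rest on few reads per library, 5 to 19 for *C1qa*, 1 to 8 for *C1qb*, 0 to 16 for *C1qc* and 2 to 16 for *Cd68*. Of the markers that were too low to test, *Ptprc* reached at most 0.00613 FPKM, *Adgre1* 0.0173 FPKM and *Mrc1* 0.0681 FPKM, and *Csf1r* measured 0.0971 and 0.0973 FPKM in the mutant pools and 0.0713 and 0.0470 FPKM in the control pools. The part of macrophages in the values of *Txnip*, *Hk2* and *Bnip3* was not tested.

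**Figure D5:**
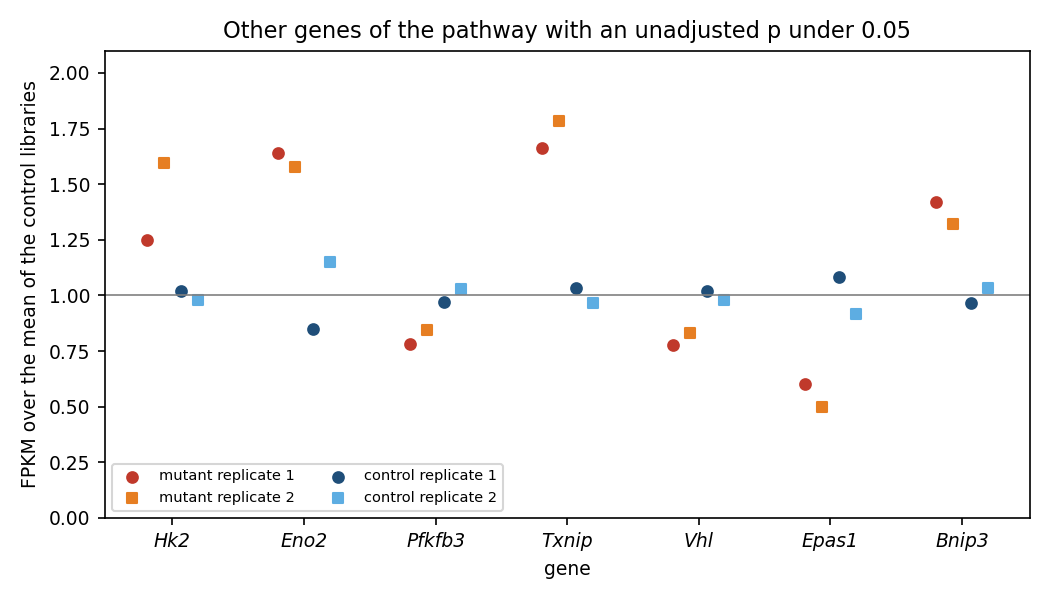
FPKM of the 7 other genes of the pathway with an unadjusted p under 0.05, divided by the mean of the 2 control libraries (vertical axis), with 1 point per library. *Hk2*, *Eno2*, *Txnip* and *Bnip3* lie above 1 and *Pfkfb3*, *Vhl* and *Epas1* below 1 in both mutant libraries.

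The routes that leave glycolysis were led by genes whose levels overlapped between the groups. *Bsg*, which encodes the partner protein that brings lactate carriers to the membrane, measured 132.9 and 137.4 FPKM in the mutant pools and 136.7 and 124.9 FPKM in the control pools (adjusted p = 0.925). *Tkt*, which encodes transketolase of the pentose phosphate pathway, measured 43.2 and 44.2 FPKM against 45.0 and 40.7 FPKM (adjusted p = 0.958). *Sord*, which encodes the sorbitol dehydrogenase of the polyol pathway, measured 18.7 and 14.5 FPKM against 14.3 and 15.7 FPKM (adjusted p = 0.848).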

How the data were processed

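PolyA RNA from pooled lenses was sequenced in 4 libraries. The authors' provider aligned reads with HISAT2, counted them with featureCounts and deposited FPKM per gene, with positions in mm39 per the labels. The table has 0 unused per-sample columns.

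The 10 genes and all lists were chosen with earlier results of these data known. Each library was scaled so that its median ratio to the geometric mean over libraries was 1. The deposited values already had the same median ratio, 1.00588, in every library, so this step changed nothing between libraries. After genes with a mean under 0.1 FPKM were removed, log2(FPKM + 0.1) was fitted with limma 3.58.1 (lmFit, eBayes with trend) in R 4.3.3, with Benjamini-Hochberg adjustment over 15997 genes. Fold changes are on that scale. With 2 libraries a group, a two-sided exact permutation test could not go below p = 0.333. Reads were recovered from FPKM and gene length, and 100% of values were whole within 0.01. They served voom, the counts of copies and depth. The replicate block took its pairs from the sample titles. Words of 31 bases and main transcript lengths came from GENCODE transcripts of GRCm38. The method was run on simulated data with changes far larger than those of most of the 10 genes. That run does not measure the power for changes of the sizes seen here. Named genes were the 10 genes, the highest gene of each list, every listed gene with an unadjusted p under 0.05, isozymes with at least 5%, in controls, of a step to which one of the 10 belongs, and *Eno1b*. *Gapdhs*, which this rule also named, lay at 0.270 to 0.607 FPKM. The isozyme shares of the hexokinase step are not reported here.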

Additional observations from a re-analysis of the deposited data

How the results depend on the processing

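No alternative brought any of the 10 genes or of the other pathway genes past an adjusted p under 0.05, including the replicate block (0 genes of either kind), the *Xist* term and voom. The count of rows of the set with an unadjusted p under 0.05, 1 in the main analysis, became 0 at a mean FPKM of at least 1, which removes the second *Aldoa* row, and 2 with the copies added, where *Gapdh* joined. It stayed at 1 without each library. That of the other genes, 7 in the main analysis, became 4 when scaled to all recovered reads, 5 with the replicate block, and 4 to 7 without single libraries (4 without mutant replicate 1 and 4 without control replicate 2). Deviations of same-numbered libraries from their group means correlated at -0.00512 across genes. Over genes at a mean of 1 FPKM or more they correlated at -0.112. These values give no sign that the numbers pair the libraries, but a single correlation cannot exclude it. The crossed pairing is the same split as the *Xist* term. Scaled to all recovered reads the log2 fold change of *Pkm* was -0.023, of *Pfkm* -0.020 and of *Tkt* -0.0011, and scaled to reads outside crystallins that of *Pkm* was -0.0042 and of *Pfkm* -0.0029. Without single libraries the log2 fold change ran from -0.044 to 0.061 for *Pkm* (with its copy added, -0.047 to 0.061), -0.59 to 3.33 for *Gapdh*, -0.16 to 0.18 for *Pfkm*, -0.070 to 0.24 for *Hk1*, -0.075 to 0.016 for *Aldoc*, -0.016 to 0.11 for *Bsg*, -0.015 to 0.19 for *Eno1b*, -0.66 to 0.27 for *Gapdhs*, -0.012 to 0.19 for *Ndrg1*, -0.080 to 0.031 for *Pdk2*, -0.25 to 0.061 for *Pgam2*, -0.058 to 0.22 for *Slc2a8*, -0.045 to 0.32 for *Sord* and -0.041 to 0.10 for *Tkt*. Shares of a step moved with the gene length. Per kilobase of the main transcript the mean share was 90.9% for *Slc2a1* (main 93.0%), 6.58% for *Pfkm* (10.0%), 47.4% for *Aldoa* (35.4%), 57.6% for *Eno1* (35.9%) and 97.9% for *Ldha* (96.8%). With copies added it was 99.5% for *Gapdh* (90.0%) and 62.4% for *Eno1*, or 58.2% for *Eno1* with *Eno1b* alone. The main transcript lengths and the copies by shared words were chosen after seeing the data. The 2 pools per group and the few reads behind *Slc2a3*, *Pfkm* and *Hk1* limit what could be detected.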
